A study of Mus musculus with 24 samples.

Results

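The genes described here encode the subunits of the oxidative phosphorylation complexes that are carried on nuclear chromosomes. They were taken from the deposited tables as the protein-coding rows on a numbered chromosome or X whose symbols name subunits of complexes I to V (symbols beginning with Nduf followed by a, b, c, s or v and a digit, with Uqcr, with Cox and a digit between 4 and 8, or with Atp5, together with Sdha to Sdhd and Cyc1). This gave 85 of 47372 genes, with 37 in complex I, 4 in complex II, 9 in complex III, 18 in complex IV and 17 in complex V. RNA was sequenced from bone-marrow-derived macrophages (BMDM) of mice aged 8 to 12 weeks, 3 lacking both LXR genes, α and β, by label (DKO), and 3 C57BL/6J mice labelled LXR-positive, and each mouse gave 4 libraries, 24 in all. In each genotype the groups were cells given KLA (kdo2-lipid A, a bacterial agonist of the receptor TLR4) at 100 ng/ml for 17 hours, GW3965 (a synthetic LXR agonist) at 1 µM for 17 hours, AcLDL (acetylated low-density lipoprotein) at 50 µg/ml for a time not given in the sources used here, and vehicle for 17 hours, with 3 libraries in each. The marrow cells of all 8 groups had been grown with 30% L929-conditioned medium to drive their differentiation. Values are normalized counts, which are reads divided by 1 size factor per library.

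Oxidative phosphorylation takes place in the inner mitochondrial membrane. Complexes I (NADH dehydrogenase) and II (succinate dehydrogenase) pass electrons to ubiquinone, complex III passes them to cytochrome c, and complex IV passes them to oxygen. Complexes I, III and IV pump protons, and complex V, the ATP synthase, uses the returning protons to make ATP. Most subunits are encoded in the nucleus and the rest on the mitochondrial chromosome, and in macrophages activated through TLR4 the pathway is known for a shift toward glycolysis and for reactive oxygen made from the succinate that complex II oxidizes.

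The libraries held 9705391 to 27189081 reads in the DKO groups and 6448579 to 17348717 in the LXR-positive groups. All 9 macrophage markers examined, among them Adgre1, Csf1r and Cd68, averaged 10 or more normalized counts in every group. Markers of other cells were present as well: the 7 stromal markers summed to between 68.4 and 6868 and the 8 neutrophil markers to between 1949 and 11131 over the 24 libraries, whereas the 5 erythroid markers summed to at most 15.2. The LXR genes themselves were not absent from the DKO libraries. Nr1h2 (LXRβ) lay between 275 and 399 normalized counts in the 12 DKO libraries and between 438 and 821 in the 12 LXR-positive ones. Nr1h3 (LXRα) averaged 181 ± 5.43 in DKO vehicle libraries and 135 ± 35.8 in LXR-positive vehicle libraries (SD, n = 3 each). These values sum reads over all exons, so they do not test whether a deleted part is missing, and DKO below stands for the libraries labelled so. Single libraries stood apart from their groups in depth. DKO replicate 3 with GW3965 had 9705391 reads, against 17671480 and 15321715 in the other libraries of that group. LXR-positive vehicle replicate 2 had 17348717 reads, against 10540385 and 10666585 in the other libraries of that group, and the highest summed count of the 85 genes of any vehicle library, 40358.

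In these macrophages 77 of the 85 genes averaged 10 or more normalized counts over the 24 libraries. Per kilobase of the longest coding transcript, those 77 ranged from 16.6 for Atp5s to 1941 for Atp5b, with a median of 286. The genes with the highest level per kilobase in their complexes were Ndufa2 (complex I, 663), Sdha (complex II, 643), Uqcrb (complex III, 1140), Cox4i1 (complex IV, 1183) and Atp5b (complex V, 1941). Atp5a1 and Atp5b encode the α and β subunits that form the catalytic head of the ATP synthase, and by normalized count they were the most abundant of the 85, averaging 3968 and 3719.

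Of the 8 genes below 10, 7 were isoforms known from particular tissues, and the other was Ndufa4l2. Cox7a1 and Cox8b, known as the heart and muscle isoforms, averaged 8.79 and 0.338 normalized counts. Their ubiquitous counterparts Cox7a2 and Cox8a averaged 189 and 300.4. Cox4i2, known as a lung isoform, averaged 1.03, against 905 for Cox4i1. Cox6a2, another muscle isoform, averaged 0.88, against 104 for Cox6a1, and the testis isoform Cox6b2 averaged 6.35, against 555 for Cox6b1. Cox7b2 averaged 0.232, Ndufa4l2, a gene known to respond to hypoxia, averaged 0.472, and Cox8c was listed at 0 in every library. The symbols also brought in some genes that are not structural subunits of the complex they were placed in. Ndufa4 is now known to belong to complex IV, Cox7a2l is a factor for joining complexes III and IV, and Atp5s and Atp5sl are named Dmac2l and Dmac2 in RefSeq.

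With KLA, 41 of the 77 tested nuclear subunit genes were called higher in each genotype, and 32 were called in neither. In limma's test on log2(normalized count + 1), with Benjamini-Hochberg adjustment over all genes, 41 of 77 tested genes were higher in DKO cells given KLA than in DKO vehicle cells at an adjusted p under 0.05, and 0 were lower. In LXR-positive cells the counts were also 41 higher and 0 lower. Of all genes, 11.1% and 12.4% were called lower. These are 53.2% of the genes tested in each genotype, where 14.0% of all 15957 genes tested were called higher in DKO cells and 16.2% in LXR-positive cells. The median log2 fold change was 0.58 in DKO cells and 0.53 in LXR-positive cells, against 0.00 for all genes tested in both. In bulk RNA, fewer cells of a type and less RNA per cell cannot be told apart.

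The 2 genotypes share no library. Each gene's spread was estimated from all 12 libraries of the fit, so the calls of the 2 genotypes are not independent. Of the genes called, 37 were called in both, which is 90.2% of each list. Over all genes tested, 1737 were called higher in both, which is 77.6% of the 2237 called in DKO cells and 67.2% of the 2584 called in LXR-positive cells. The 4 genes called in DKO cells but not in LXR-positive cells were Atp5k, Cox4i1, Cox5b and Ndufb7. The 4 called in LXR-positive cells but not in DKO cells were Cox7c, Ndufb2, Ndufs6 and Sdhc. When each of the 6 libraries compared was left out in turn, Cox5b and Cox7c kept their call in 6 of 6 fits, Sdhc in 4, Ndufb2 and Ndufb7 in 3, and Atp5k, Cox4i1 and Ndufs6 in 2. Ndufs6 was also called in only 5 of the 12 settings that used all replicates. A further 32 genes were called in neither, and 4 of these, Ndufb11, Cox7a2l, Atp5g2 and Atp5sl, had a log2 fold change below 0 in both.

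**Figure D1:**
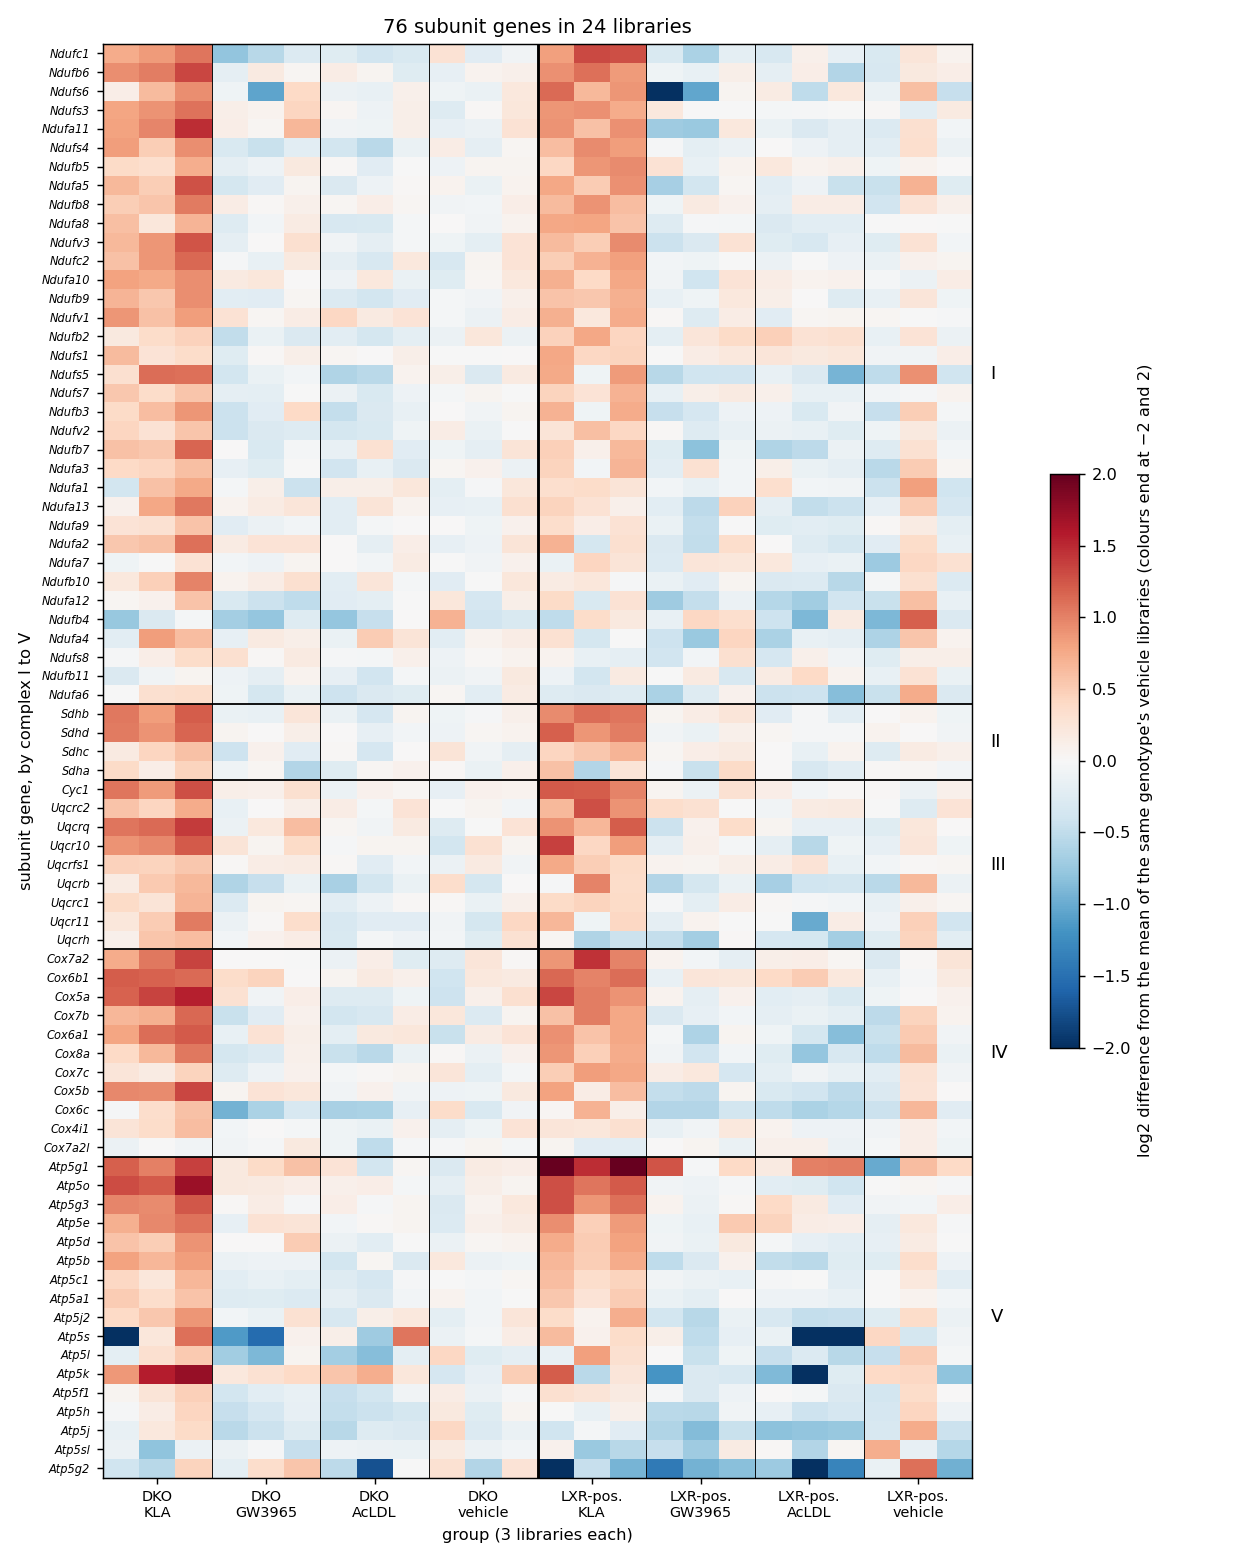
Heat map of 76 of the 77 genes tested (down, grouped by complex I to V and ordered by the LXR-positive KLA response) in 24 libraries (across, 3 per group). Colour gives the log2 difference of (normalized count + 1) from the mean of the same genotype's vehicle libraries. The columns of both KLA groups are mostly red, and the GW3965, AcLDL and vehicle columns hold both colours; LXR-positive vehicle replicate 2 is redder than the other vehicle libraries of that group.

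The summed normalized counts of the 85 genes lay between 46033 and 55215 in DKO cells given KLA, against 30811 to 33836 in DKO vehicle cells. In LXR-positive cells they lay between 47386 and 50734 with KLA and between 31106 and 40358 with vehicle. The KLA libraries lay above the vehicle libraries in both genotypes, and this held for the sum of each of the 5 complexes. Every KLA library lay above every vehicle library for 49 genes in DKO cells, where 23.6% of all genes tested did so, and for 42 genes in LXR-positive cells, where 21.6% did. For 0 of the 77 genes did every KLA library lie below, where 21.5% of all genes tested did in DKO cells and 18.0% in LXR-positive cells.

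**Figure D2:**
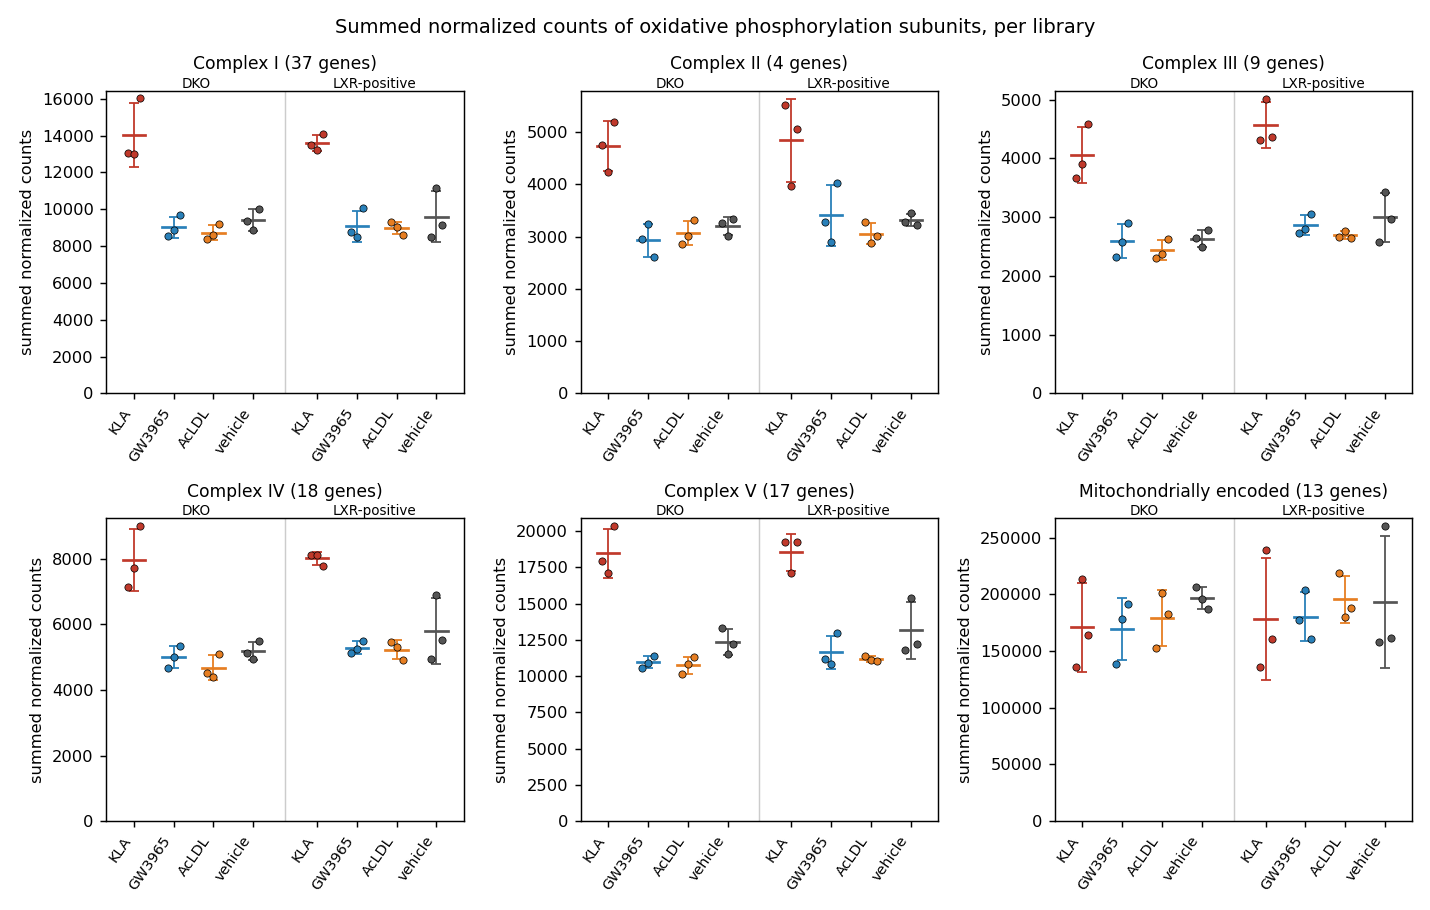
Summed normalized counts per library (points) with group means and SDs (bars, n = 3) for the nuclear genes of each complex and for the 13 subunits on the mitochondrial chromosome, with DKO groups on the left of each panel. In each complex the 3 KLA libraries lie above the vehicle libraries of their genotype, whereas the mitochondrially encoded sums overlap in both genotypes.

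Other gene lists were examined with KLA as well, and their part in the result was not tested. Macrophage and osteoclast marker sums lay above vehicle in both genotypes, and stromal sums overlapped in both. Proliferation sums lay below vehicle in DKO cells and overlapped in LXR-positive cells. Neutrophil sums lay below vehicle in LXR-positive cells and overlapped in DKO cells. The summed macrophage markers were 295975 to 337388 in DKO cells given KLA and 185932 to 220678 in DKO vehicle cells, and 376113 to 448789 and 238564 to 311709 in the LXR-positive KLA and vehicle cells. Lyz2, at 81053 to 312898 over the 24 libraries, was the largest single part of these sums. They do not show the direction of the other macrophage markers. The 5 osteoclast markers summed to 1267 to 1769 with KLA and 279 to 502 with vehicle in DKO cells, and to 1229 to 1736 and 258 to 307 in LXR-positive cells, and Calcr was at 0 in the vehicle libraries of both genotypes. Acp5 (14.3 to 1140) and Mmp9 (47.9 to 749) had the widest ranges of these 5 over the 24 libraries. The 7 proliferation markers summed to 5006 to 5847 with KLA and 6974 to 17563 with vehicle in DKO cells, and to 5085 to 7029 and 3624 to 14023 in LXR-positive cells. The 8 neutrophil markers summed to 3223 to 7102 with KLA and 6106 to 8726 with vehicle in DKO cells, and to 1949 to 2546 and 4113 to 4548 in LXR-positive cells, with Ly6g at 0 in the LXR-positive KLA libraries. The 7 stromal markers summed to 247 to 1983 with KLA and 207 to 3446 with vehicle in DKO cells, and to 201 to 1033 and 68.4 to 753 in LXR-positive cells. Among coding genes with transcripts under 1000 bases, the median log2 fold change was 0.60 for 42 subunit genes and 0.21 for 633 others in DKO cells, and 0.45 and 0.07 in LXR-positive cells. Among coding genes of 1000 to 2000 bases the median log2 fold change was 0.61 for 26 subunit genes and 0.14 for 2419 others in DKO cells, and 0.59 and 0.13 in LXR-positive cells.

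Complex I takes electrons from NADH. KLA raised 17 of its 36 tested genes in DKO cells and 18 in LXR-positive cells, with median log2 fold changes of 0.56 and 0.49. Of the 7 nuclear genes for its catalytic core, which carries the flavin and the iron-sulfur clusters, 5 were called higher in both genotypes (Ndufs1, Ndufs3, Ndufs7, Ndufv1 and Ndufv2). The gene roles used here and below were assigned with the values already seen, so these counts are descriptive.

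Ndufs1, the largest subunit, had 1230.3, 968 and 1027 normalized counts in DKO cells given KLA, against 793, 795 and 802 in DKO vehicle cells. It had 1562, 1220.5 and 1249 in LXR-positive cells given KLA, against 871, 875 and 1004 in vehicle cells. In both genotypes all KLA libraries were higher than all vehicle libraries, with log2 fold changes of 0.42 ± 0.12 and 0.55 ± 0.12 (SE) and limma adjusted p of 0.0257 and 0.00591. In DKO cells limma's call was lost under quantile normalization (adjusted p = 0.0692) and with reads thinned to the same total in every library (0.0684), and it was kept in 1 of 6 fits with a library left out. Ndufv1, the flavin-binding subunit, had log2 fold changes of 0.77 ± 0.15 and 0.55 ± 0.15 (limma adjusted p = 0.00296 and 0.017). The LXR-positive call of Ndufv1 was lost with only the libraries compared (limma adjusted p = 0.0598) and with thinned reads (0.133), and was kept in 4 of 6 fits with a library left out.

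Among the 29 tested accessory genes of complex I, 11 were called higher in both genotypes and 15 in neither. Ndufb6, of the membrane arm, had 144, 154 and 192 normalized counts in DKO cells given KLA and 67.2, 78.9 and 80.7 in DKO vehicle cells. Its LXR-positive values were 171, 195 and 164 with KLA and 72.6, 104 and 99 with vehicle. The groups did not overlap, and the log2 fold changes were 1.10 ± 0.18 and 0.95 ± 0.18 (limma adjusted p = 0.000789 and 0.00177). Of the 50-base windows in Ndufb6 transcripts, 31.6% also occur in those of Toporsos, a gene on the opposite strand that averaged 30.5 normalized counts. Ndufc1 (log2 fold change 0.89 in DKO cells and 1.14 in LXR-positive cells), Ndufa11 (1.08 and 0.80) and Ndufs4 (0.75 and 0.80) were also called in both. Ndufs3, at 0.92 and 0.85, is listed a second time on an alternate assembly patch with the same value in every library, as is Uqcrc1 of complex III, so each listed value is 1 of 2 equal shares; adding the copies changed neither gene's call.

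Complex II oxidizes succinate and is the one complex with no subunit on the mitochondrial chromosome. Its iron-sulfur subunit gene Sdhb had 875, 752 and 978 normalized counts in DKO cells given KLA, against 395, 413 and 453 in DKO vehicle cells. The LXR-positive libraries had 942, 1059 and 1032 with KLA, against 493, 516 and 462 with vehicle. Sdhd, for a membrane anchor that holds the haem, had 926, 842 and 1017 with KLA and 421, 462 and 474 with vehicle in DKO cells. It had 1191, 963 and 1064 with KLA and 547, 521 and 494 with vehicle in LXR-positive cells. Both genes stood clearly above vehicle in every KLA library, by log2 fold changes of 1.04 ± 0.11 in each genotype for Sdhb and 1.03 ± 0.11 and 1.04 ± 0.11 for Sdhd (SE; limma adjusted p between 3.5e-05 and 4.6e-05).

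The other subunit genes of complex II had smaller log2 fold changes. Sdhc, for the other anchor, was called higher in LXR-positive cells (log2 fold change 0.55 ± 0.16, limma adjusted p = 0.0211) and not in DKO cells (0.40 ± 0.16, adjusted p = 0.0844). Sdha, for the flavoprotein that binds succinate, had 2466, 2071 and 2564 normalized counts in DKO cells given KLA and 1932, 1722 and 2037 in DKO vehicle cells. In LXR-positive cells it had 2675, 1186 and 2124 with KLA and 1799.9, 1829 and 1702 with vehicle. KLA replicate 2 was the lowest of these LXR-positive libraries and KLA replicate 1 the highest, and neither genotype was called (limma adjusted p = 0.347 and 0.803), although all 3 DKO libraries given KLA lay above the DKO vehicle libraries. The LXR-positive log2 fold change of Sdha was 0.09 with all libraries, -0.16 without KLA replicate 1, and 0.42 without KLA replicate 2, where limma called it (adjusted p = 0.0342).

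In complex III, which passes electrons from ubiquinol to cytochrome c, 6 of 9 genes were called higher in each genotype. All 4 of the genes for its large core proteins and redox subunits were among them (Uqcrc1, Uqcrc2, Uqcrfs1 and Cyc1), as were 2 of the 5 small subunits (Uqcrq and Uqcr10). Cyc1, cytochrome c1, had 331, 283 and 383 normalized counts in DKO cells given KLA, against 139, 166 and 165 in DKO vehicle cells. LXR-positive cells had 417, 412 and 357 with KLA, against 181, 164 and 191 with vehicle. Every KLA library was higher than every vehicle library, with log2 fold changes of 1.07 ± 0.14 and 1.14 ± 0.14 (limma adjusted p = 0.000172 and 9.58e-05). Uqcrfs1, the Rieske iron-sulfur protein, had log2 fold changes of 0.48 ± 0.12 and 0.55 ± 0.12 (limma adjusted p = 0.012 and 0.00532). Uqcrc1, a core protein, had 0.44 ± 0.13 and 0.40 ± 0.13 (limma adjusted p = 0.0259 and 0.0342), and both calls were lost when each fit used only the 6 libraries compared (adjusted p = 0.0511 and 0.0612). The LXR-positive call of Uqcrc1 was also lost under quantile normalization (limma adjusted p = 0.101) and with no filter (0.0596), and with a library left out the calls were kept in 2 of 6 fits in DKO cells and 1 of 6 in LXR-positive cells. Uqcrb, Uqcr11 and Uqcrh, also small subunits, were called in neither genotype.

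Complex IV reduces oxygen. Of its 11 tested genes, 7 were called higher in DKO cells and 6 in LXR-positive cells. Cox5a had 550.4, 624 and 713 normalized counts in DKO cells given KLA, against 183, 259.9 and 303 in DKO vehicle cells. Its LXR-positive values were 825, 663 and 606 with KLA, against 306, 329 and 345 with vehicle. The groups did not overlap, and the log2 fold changes were 1.36 ± 0.18 and 1.08 ± 0.18 (limma adjusted p = 0.000193 and 0.000875). Cox6b1, which faces the intermembrane space, had 862, 846 and 823 with KLA and 283, 434 and 424 with vehicle in DKO cells. It had 946, 849 and 928.95 with KLA and 384, 419 and 484 with vehicle in LXR-positive cells. It too was higher in every KLA library, by 1.17 ± 0.15 and 1.09 ± 0.15 (limma adjusted p = 0.000173 and 0.000269).

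Cox7a2, Cox6a1 and Cox7b were also called in both genotypes, with log2 fold changes between 0.75 and 1.11. With a library left out, Cox7a2 kept its call in 6 of 6 fits in both genotypes, Cox7b in 4 in DKO cells and 3 in LXR-positive cells, and Cox6a1 in 5 in DKO cells and 1 in LXR-positive cells, where it was called in 7 of the 12 settings. Cox5b was called in DKO cells (1.08 ± 0.19, limma adjusted p = 0.0013) and stood just outside the threshold in LXR-positive cells (0.53 ± 0.19, adjusted p = 0.0561). Cox4i1, which carries an ATP-binding regulatory site, had the highest level of the complex per kilobase but a small response. It had 997, 1069.8 and 1269.6 normalized counts in DKO cells given KLA and 730.4, 786 and 1002 in DKO vehicle cells. Cox4i1 was higher with KLA in each of the 3 DKO mice, although the groups overlapped between mice. The call there (0.41 ± 0.13, limma adjusted p = 0.0393) was lost when the fit used only the 6 libraries compared (adjusted p = 0.0803), under quantile normalization (0.0737) and with no filter (0.0697), and was kept with the mouse as a block (0.0173). In LXR-positive cells the log2 fold change of Cox4i1 was 0.26 ± 0.13 (limma adjusted p = 0.161). Cox7a2l, the gene with the highest normalized count in the complex at a mean of 1229, was called in neither genotype, with log2 fold changes of -0.07 ± 0.10 and -0.13 ± 0.10.

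**Figure D3:**
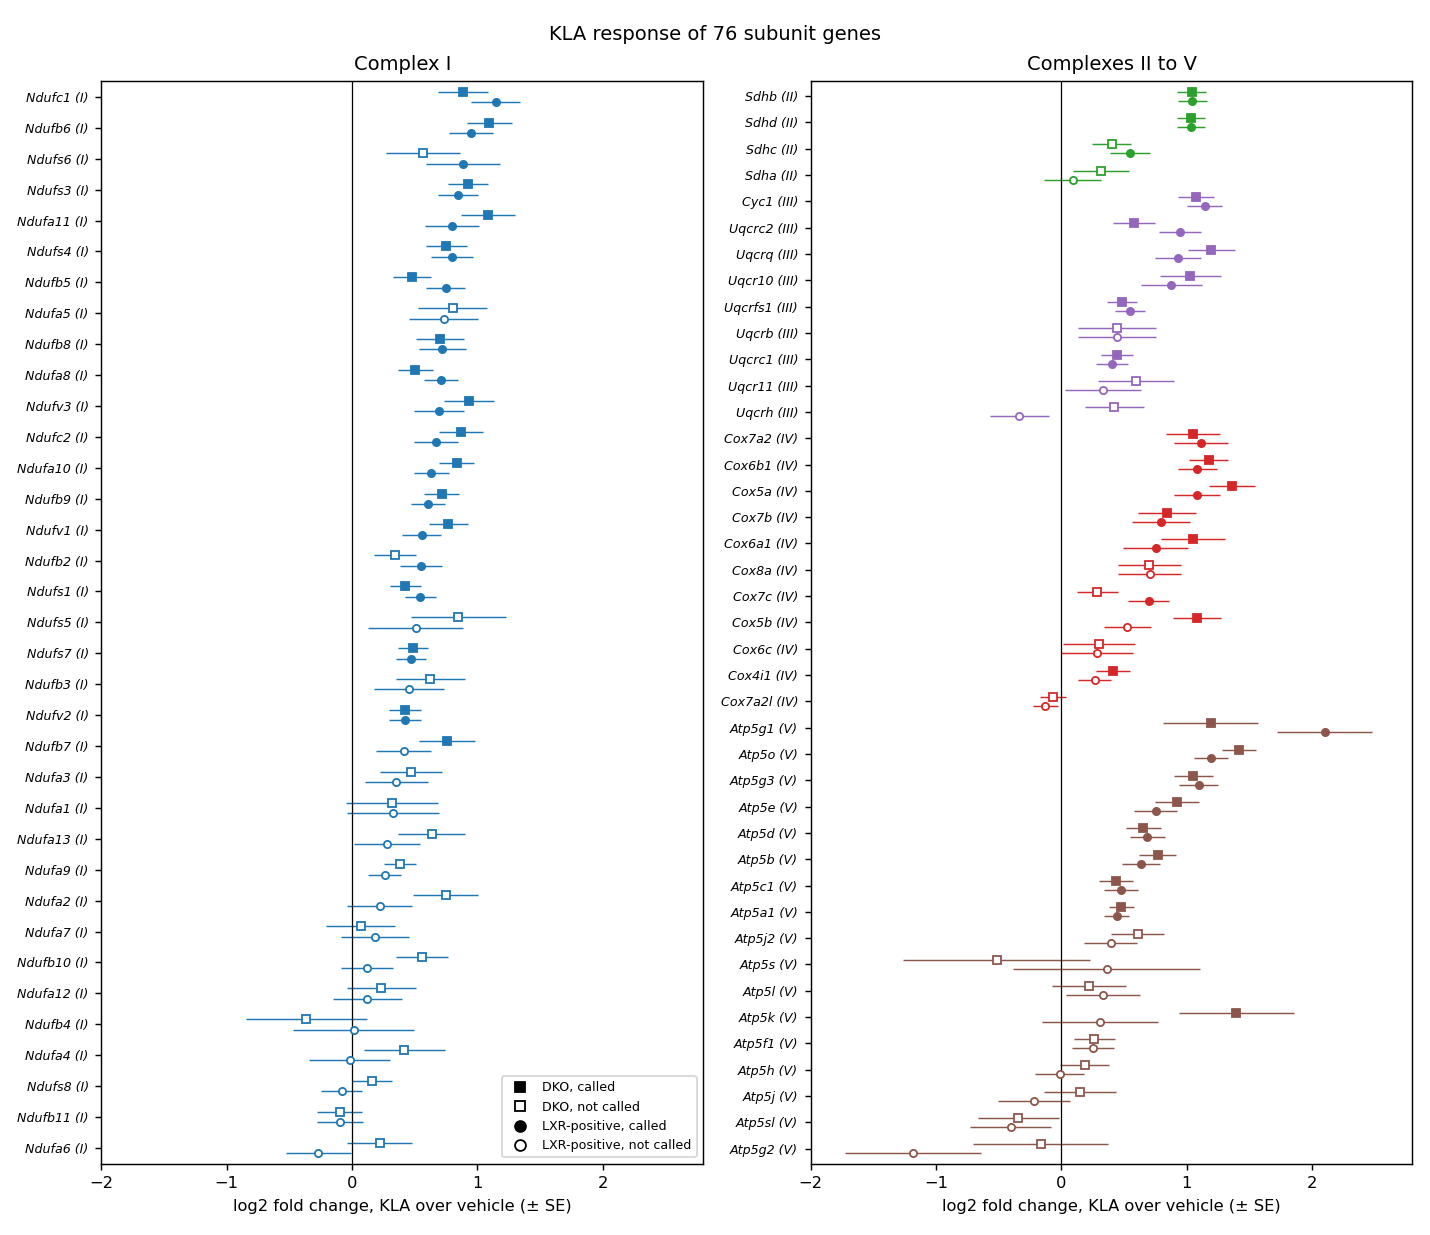
Log2 fold change of 76 of the 77 tested genes, KLA over vehicle (horizontal axis, bars ± SE), in DKO cells (squares) and LXR-positive cells (circles), with complex I on the left and complexes II to V on the right. Filled symbols were called at an adjusted p under 0.05; all 41 filled symbols of each genotype lie to the right of 0.

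Complex V makes ATP, and its called genes were spread unevenly over its parts. All 5 genes for the F1 head, which makes ATP (Atp5a1, Atp5b, Atp5c1, Atp5d and Atp5e), were called higher in both genotypes. Of the 4 for the peripheral stalk, which holds the head still, Atp5o was called in both and Atp5f1, Atp5h and Atp5j in neither. Of the 3 for the c ring, the rotor that protons turn, Atp5g1 and Atp5g3 were called in both and Atp5g2 in neither. Of 3 further membrane subunit genes, Atp5k was called in DKO cells, and Atp5j2 and Atp5l in neither genotype. Whether these parts differed from each other was not tested.

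Atp5a1 had 4838, 4379 and 5078 normalized counts in DKO cells given KLA, against 3569, 3275 and 3411 in DKO vehicle cells. In LXR-positive cells it had 6089, 5093 and 5947 with KLA, against 4176, 4385 and 4039.6 with vehicle. All KLA libraries were higher, by the modest log2 fold changes of 0.48 ± 0.10 and 0.44 ± 0.10 (limma adjusted p = 0.00386 and 0.00562). Atp5b, its partner in the catalytic sites, rose by 0.77 ± 0.15 and 0.63 ± 0.15 (limma adjusted p = 0.00278 and 0.00779). Atp5o, the stalk protein that joins the head, had 802, 757 and 1058 with KLA and 286, 351 and 336 with vehicle in DKO cells. It had 956, 821 and 915 with KLA and 388, 400.0 and 385 with vehicle in LXR-positive cells. This was the largest response of any of the 77 genes in DKO cells, with log2 fold changes of 1.41 ± 0.14 and 1.19 ± 0.14 (limma adjusted p = 1.5e-05 and 5.1e-05). Of the 50-base windows in Atp5o transcripts, 41.6% also occur in another gene's transcripts, the most of them, 308, in those of Gm15976, which averaged 0.58 normalized counts.

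The 3 c-ring genes encode the same mature protein from different loci. Atp5g1 had 204, 180.3 and 231 normalized counts in DKO cells given KLA, against 72.1, 99.1 and 97.8 in DKO vehicle cells. LXR-positive libraries held 259.6, 138 and 270.2 with KLA, against 23.8, 75.5 and 64.8 with vehicle. No library overlapped in either genotype, but the LXR-positive vehicle values were widely spread, and the log2 fold changes were 1.19 ± 0.38 and 2.10 ± 0.38 (limma adjusted p = 0.0379 and 0.00143). The DKO call was lost with the mouse as a block (limma adjusted p = 0.0562) and with no filter (0.0596), and was kept in 0 of 6 fits with a library left out. Atp5g3 had 474, 467 and 569 with KLA and 197, 253 and 281 with vehicle in DKO cells, and 644, 489.7 and 569 with KLA and 251, 253 and 289.6 with vehicle in LXR-positive cells. It was higher in every KLA library, by 1.05 ± 0.16 and 1.09 ± 0.16 (limma adjusted p = 0.000399 and 0.000256).

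Atp5g2 was called in neither genotype. It had 54.8, 49 and 99.2 normalized counts in DKO cells given KLA and 89.5, 48.1 and 87.9 in DKO vehicle cells. LXR-positive cells had 11.7, 40.4 and 28.8 with KLA and 51.2, 121 and 28.1 with vehicle. Both pairs overlapped, and the log2 fold changes were -0.17 ± 0.54 and -1.18 ± 0.54 (limma adjusted p = 0.855 and 0.124). With the mouse as a block, Atp5g2 was called lower in LXR-positive cells (adjusted p = 0.0463), and so it was without LXR-positive vehicle replicate 3 (adjusted p = 0.0435). Of its 50-base windows 38.4% are shared, mostly with Gm10175, which averaged 140.5 normalized counts, so its value is uncertain.

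**Figure D4:**
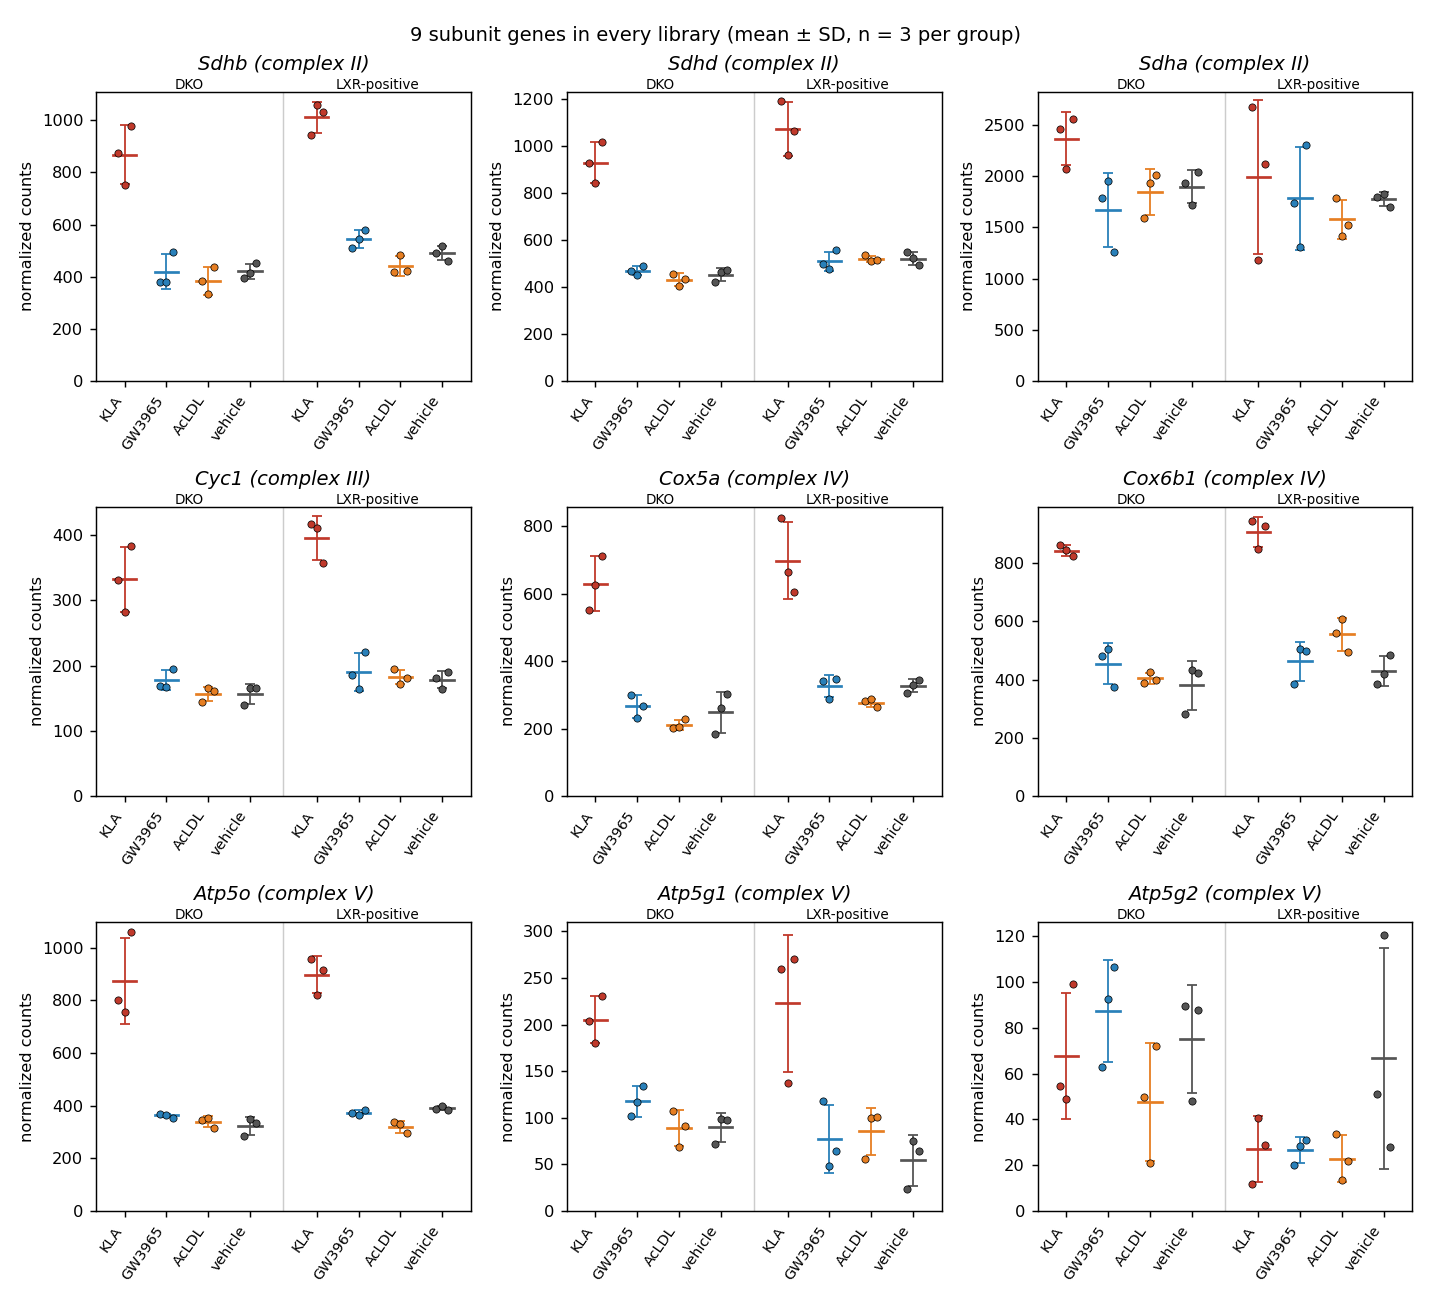
Normalized counts of 9 subunit genes in every library (points) with group means and SDs (bars, n = 3), DKO groups on the left of each panel. Sdhb, Sdhd, Cyc1, Cox5a, Cox6b1, Atp5o and Atp5g1 are higher in every KLA library than in every vehicle library of the same genotype, whereas the LXR-positive groups overlap for Sdha and both genotypes overlap for Atp5g2.

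The KLA responses of the 2 genotypes were then set against each other. In limma 0 of 77 genes were called for the difference between the DKO response and the LXR-positive response, where 0.0689% of all genes tested were, and 1 gene had an unadjusted p under 0.05. This was Uqcrh, with a difference of 0.76 ± 0.33 (SE, limma adjusted p = 0.863). Of all 15957 genes tested, 855 had an unadjusted p under 0.05 in limma. edgeR and DESeq2 also called 0 of the subunit genes, and 14 and 49 of all genes tested. The authors' deposited table of the same contrast gives an adjusted p for 79 of the subunit genes, and 0 of these are under 0.05. For Sdhb and Sdhd the estimated difference was 0.00 ± 0.16. For Atp5g1 it was -0.91 ± 0.54 and for Atp5k 1.09 ± 0.65, so at this spread differences of such a size were not resolved.

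The start-site regions of genes that moved together are shown because several transcription factors are known for binding such genes. RefSeq windows of 300 bases (250 before and 50 after the start of transcription, build GRCm38.p6) were found for 69 of the 85 genes, 75 windows in all. Windows were searched on both strands for the letters of an NRF1 core (GCGCATG, whose complement overlaps it at the shared CATG or GCGC), an ETS or GABP site (CCGGAAG), a YY1 site (AAGATGG), an ERR element (AAGGTCA) and a cAMP-response element (TGACGTC, whose complement overlaps it). A window counted once however many matches it held. The NRF1 letters were in 17.3% of the 75 windows, against 4.76% of 21188 windows of other coding genes and 3.91% of all 32851 windows. The ETS or GABP letters were in 21.3%, 11.5% and 8.86% of these windows, the YY1 letters in 17.3%, 6.2% and 6.34%, the ERR letters in 10.7%, 4.05% and 4.72%, and the cAMP-response letters in 9.33%, 3.82% and 3.21%. Among 33 windows of genes called in both genotypes the NRF1 and the ETS or GABP letters were each in 21.2%, the YY1 letters in 12.1%, and the ERR and cAMP-response letters each in 9.09%. These matches describe the letters alone and show neither binding nor its absence.

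The 7 windows below belong to genes with large responses in both genotypes. The first 4 were chosen because they hold matches, and the other 3 belong to the genes with the largest mean response and hold none. Matched letters are in capitals, and windows are written 5′ to 3′ on the gene's own strand. Sdhb (chr4:140961021-140961320, plus strand) holds the NRF1 and ETS or GABP letters, Sdhd (chr9:50603800-50604099, minus strand) the ETS or GABP and ERR letters, Ndufb6 (chr4:40279372-40279671, minus strand) the ETS or GABP and NRF1 letters, and Cox6b1 (chr7:30626065-30626364, minus strand) the ETS or GABP letters. Atp5o (chr16:91931581-91931880, minus strand), Cox5a (chr9:57520982-57521281, plus strand) and Atp5g1 (chr11:96075582-96075881, minus strand) hold none of the 5, nor does that of Cox7a2, not shown.
Sdhb: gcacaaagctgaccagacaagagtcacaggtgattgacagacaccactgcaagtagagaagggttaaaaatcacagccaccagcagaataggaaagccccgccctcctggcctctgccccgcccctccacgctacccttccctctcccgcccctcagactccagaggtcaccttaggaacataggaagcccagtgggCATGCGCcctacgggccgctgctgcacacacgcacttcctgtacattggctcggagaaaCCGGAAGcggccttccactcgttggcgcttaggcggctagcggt
Sdhd: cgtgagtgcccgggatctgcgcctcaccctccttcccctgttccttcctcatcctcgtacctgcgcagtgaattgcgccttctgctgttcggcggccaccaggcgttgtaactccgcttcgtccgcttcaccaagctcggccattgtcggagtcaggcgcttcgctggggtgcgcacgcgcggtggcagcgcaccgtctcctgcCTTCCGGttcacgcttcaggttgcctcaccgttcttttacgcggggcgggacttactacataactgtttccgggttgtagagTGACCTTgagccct
Ndufb6: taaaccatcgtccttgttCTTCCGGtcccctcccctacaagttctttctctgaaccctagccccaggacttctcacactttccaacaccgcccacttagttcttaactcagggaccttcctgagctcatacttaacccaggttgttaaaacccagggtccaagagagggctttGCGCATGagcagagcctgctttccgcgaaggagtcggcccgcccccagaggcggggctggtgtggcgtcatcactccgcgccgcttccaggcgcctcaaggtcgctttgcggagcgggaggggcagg
Cox6b1: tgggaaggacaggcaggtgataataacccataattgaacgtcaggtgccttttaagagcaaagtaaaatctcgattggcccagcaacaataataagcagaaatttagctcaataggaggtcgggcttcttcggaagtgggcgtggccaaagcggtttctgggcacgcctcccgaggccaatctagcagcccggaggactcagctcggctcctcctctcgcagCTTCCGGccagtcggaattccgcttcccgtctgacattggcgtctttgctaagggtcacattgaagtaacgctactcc
Atp5o: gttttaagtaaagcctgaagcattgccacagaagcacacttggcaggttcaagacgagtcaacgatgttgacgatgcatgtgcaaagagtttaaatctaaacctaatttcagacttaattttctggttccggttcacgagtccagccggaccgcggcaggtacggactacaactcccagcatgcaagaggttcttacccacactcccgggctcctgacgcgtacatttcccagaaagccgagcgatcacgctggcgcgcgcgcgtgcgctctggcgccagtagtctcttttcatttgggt
Cox5a: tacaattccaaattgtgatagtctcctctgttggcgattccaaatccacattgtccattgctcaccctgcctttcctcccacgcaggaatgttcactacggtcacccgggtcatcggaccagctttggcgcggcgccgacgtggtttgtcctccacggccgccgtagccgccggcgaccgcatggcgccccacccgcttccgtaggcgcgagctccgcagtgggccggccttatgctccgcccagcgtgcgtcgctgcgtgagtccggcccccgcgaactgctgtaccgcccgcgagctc
Atp5g1: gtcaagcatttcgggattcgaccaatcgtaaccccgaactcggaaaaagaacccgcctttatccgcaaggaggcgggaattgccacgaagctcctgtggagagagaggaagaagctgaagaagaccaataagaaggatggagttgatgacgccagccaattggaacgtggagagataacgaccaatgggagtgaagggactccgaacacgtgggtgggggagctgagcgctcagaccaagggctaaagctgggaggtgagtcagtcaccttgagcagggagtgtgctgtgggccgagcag

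The 13 subunits encoded on the mitochondrial chromosome were not among the genes called. With KLA, limma called 0 of 13 in either genotype, and 12 of 13 in DKO cells and 10 of 13 in LXR-positive cells had a log2 fold change below 0, with medians of -0.39 and -0.49. Their summed normalized counts were 135741 to 213343 in DKO cells given KLA and 187184 to 206905 in DKO vehicle cells, and 136147 to 239036 and 157566 to 260367 in LXR-positive KLA and vehicle cells. These ranges overlapped in both genotypes. The largest single part of each sum was mt-Co1, at 160274 of 239036 in LXR-positive KLA replicate 2. mt-Cytb, the cytochrome b of complex III, averaged 4566 ± 1655 in DKO cells given KLA and 6906 ± 677 in DKO vehicle cells (SD, n = 3 each), a log2 fold change of -0.66 ± 0.30 (SE, limma adjusted p = 0.136). In LXR-positive cells it averaged 3302 ± 467 with KLA and 6091 ± 2925 with vehicle, -0.79 ± 0.30 (limma adjusted p = 0.0682). All genes of the mitochondrial chromosome together took 8.76% to 12.6% of reads in DKO cells given KLA and 14.0% to 16.6% in DKO vehicle cells, and 8.99% to 15.5% and 14.3% to 19.3% in LXR-positive KLA and vehicle cells. The 13 subunits alone took 1.08% to 1.64% of reads in DKO cells given KLA and 1.53% to 1.67% in DKO vehicle cells. In LXR-positive cells they took 1.03% to 1.73% with KLA and 1.24% to 1.93% with vehicle, so these shares overlapped in both genotypes. Most reads of the chromosome therefore came from its other genes. The difference between the nuclear and the mitochondrially encoded sets was not tested.

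Lists of other mitochondrial genes were examined with KLA in the same fit, in which 14.0% of all genes tested were called higher and 11.1% lower in DKO cells, and 16.2% and 12.4% in LXR-positive cells. Of 46 assembly factors, which build the complexes, 10 were higher and 0 lower in DKO cells, and 11 were higher and 1 lower in LXR-positive cells, with list medians of 0.44 and 0.34. Cox17, a copper chaperone for complex IV, averaged 509.5 ± 23.3 in DKO cells given KLA and 225 ± 43.4 in DKO vehicle cells (SD, n = 3 each), and 449 ± 86.2 and 263 ± 63.9 in LXR-positive KLA and vehicle cells. Ndufaf3, for complex I, had log2 fold changes of 1.38 ± 0.27 and 1.56 ± 0.27 (limma adjusted p = 0.00279 and 0.00104). The gene called lower in LXR-positive cells was Surf1, for complex IV, at -0.35 ± 0.12 (limma adjusted p = 0.0425).

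Among 18 genes for mobile electron carriers and the enzymes that feed ubiquinone, 4 were higher in DKO cells and 6 in LXR-positive cells, and 0 were lower in either, with list medians of 0.32 and 0.30. Gpd2, the mitochondrial glycerol phosphate dehydrogenase, averaged 2848 ± 69.4 in DKO cells given KLA and 402 ± 60 in DKO vehicle cells (SD, n = 3 each). In LXR-positive cells it averaged 3128 ± 108 with KLA and 435 ± 115 with vehicle, and its log2 fold changes of 2.83 ± 0.16 and 2.88 ± 0.16 (SE, limma adjusted p = 3.76e-07 and 2.78e-07) exceeded those of all 77 subunit genes. Cycs, the somatic cytochrome c that links complexes III and IV, had log2 fold changes of 1.24 ± 0.13 and 1.08 ± 0.13 (limma adjusted p = 3.95e-05 and 9.98e-05). Of 8 tested genes for ATP and phosphate exchange, 5 were higher and 1 lower in each genotype. Slc25a5, an ADP/ATP carrier of the inner membrane, had log2 fold changes of 1.16 ± 0.12 and 1.21 ± 0.12 (limma adjusted p = 2.06e-05 and 1.44e-05). The gene called lower was Ucp2, an uncoupling-protein homologue, at -0.64 ± 0.14 and -0.76 ± 0.14 (limma adjusted p = 0.0055 and 0.00164).

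Of 77 tested genes of the mitochondrial ribosome, which translates the mitochondrially encoded subunits, 25 were higher in DKO cells and 31 in LXR-positive cells, with 0 lower in either and median log2 fold changes of 0.47 in both. Mrpl52 had the smallest adjusted p of this list in both genotypes, with log2 fold changes of 1.57 ± 0.13 and 1.20 ± 0.13 (limma adjusted p = 5.27e-06 and 3.72e-05). Of 15 tested regulators of mitochondrial gene expression, 3 were higher and 2 lower in DKO cells, and 4 were higher and 0 lower in LXR-positive cells, with list medians of -0.08 and -0.05. Ppargc1b, a coactivator of the PGC-1 family, had log2 fold changes of 1.64 ± 0.22 and 1.01 ± 0.22 (limma adjusted p = 0.000194 and 0.00468), and Esrra, the receptor ERRα, 0.93 ± 0.25 and 0.99 ± 0.25 (limma adjusted p = 0.0189 and 0.0121). Tfb1m, a methyltransferase for mitochondrial ribosomal RNA, was the remaining regulator called higher in both. Gabpa, the DNA-binding subunit of GABP, was called lower in DKO cells (-0.44 ± 0.13, limma adjusted p = 0.0314), as was Polg2, an accessory subunit of the mitochondrial DNA polymerase.

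**Figure D5:**
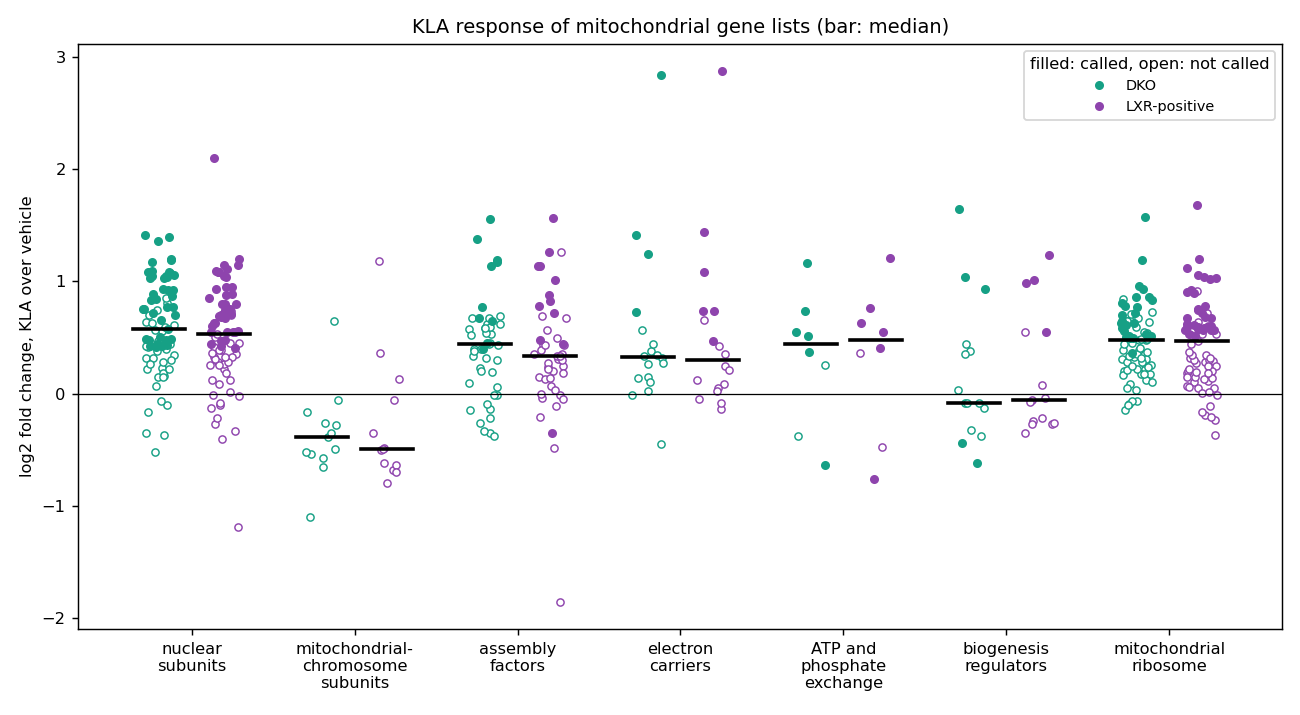
Log2 fold change under KLA (vertical axis) of the tested genes of each list (points, filled where called) with list medians (black bars), DKO cells on the left of each pair and LXR-positive cells on the right. The nuclear subunits have medians of 0.58 and 0.53 and the mitochondrially encoded subunits medians of -0.39 and -0.49, with no filled point among the mitochondrially encoded ones.

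Under GW3965, which activates LXR in cells that have it, no subunit gene was called in either genotype. In limma 0 of 78 tested genes passed in DKO cells, where 0.00621% of all genes did, and 0 of 78 in LXR-positive cells, where 0.267% did. An unadjusted p under 0.05 in limma was reached by 5 and 2 of them, and by 940 and 988 of all 16116 genes tested. edgeR and DESeq2 called 0 of the 78. Of all genes tested, they called 0 and 26 in DKO cells and 39 and 86 in LXR-positive cells. The median log2 fold change of the 78 genes was -0.03 in DKO cells and -0.08 in LXR-positive cells. Below 0 were 44 of 78 genes in DKO cells and 58 of 78 in LXR-positive cells. Over all 16116 genes tested, 8007 and 8479 were below 0. Among coding genes with transcripts under 1000 bases, the LXR-positive median was -0.11 for 43 subunit genes and -0.12 for 628 others. In DKO cells these medians were -0.03 and 0.01. From 1000 to 2000 bases, the LXR-positive median was -0.04 for both 26 subunit genes and 2412 others, and the DKO medians were -0.014 and 0.015. The smallest p in DKO cells was that of Atp5a1, with 2847, 2881 and 2829.7 normalized counts with GW3965 and 3569, 3275 and 3411 with vehicle. All 3 GW3965 libraries were lower, by a log2 difference of -0.26 ± 0.08 (limma adjusted p = 0.8). Ndufv2 (-0.32 ± 0.12) and Ndufc1 (-0.54 ± 0.20) followed, each with a limma adjusted p of 0.848. In LXR-positive cells the 3 smallest p were those of Atp5g2 (-1.07 ± 0.45), Atp5j (-0.64 ± 0.28) and Ndufs6 (-2.04 ± 0.99), with limma adjusted p between 0.759 and 0.828. Over 11 core subunits, the log2 fold changes ran between -0.26 ± 0.08 for Atp5a1 and 0.18 ± 0.15 for Cyc1 in DKO cells, and between -0.23 ± 0.17 for Atp5b and 0.15 ± 0.12 for Sdhb in LXR-positive cells. The difference between the genotypes was called for 0 of 78 genes, where 0.118% of all genes tested were. Of the 78, 0 had an unadjusted p under 0.05 in limma, and edgeR and DESeq2 called 0. Of all 16116 genes tested, 752 had an unadjusted p under 0.05 in limma, and edgeR and DESeq2 called 16 and 55. The stromal markers summed to 1308 to 6868 in DKO cells given GW3965 and 207 to 3446 in DKO vehicle cells, and their part in these values was not tested. GW3965, AcLDL and KLA share the vehicle libraries of their genotype.

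AcLDL loads macrophages with cholesterol, and no subunit gene was called with it. In limma 0 of 78 genes passed in DKO cells, where 0.125% of all genes tested did, and 0 of 78 in LXR-positive cells, where 0.225% did. edgeR and DESeq2 called 0 of the 78. Of all 16026 genes tested, DESeq2 called 78 in DKO cells and 270 in LXR-positive cells, and edgeR called 18 and 20. With the mouse as a block, limma called 38 and 247 of all genes tested. The estimates of the 78 genes lay mostly below 0. In DKO cells 55 of 78 were below 0 with a median of -0.09, and 4 had an unadjusted p under 0.05. In LXR-positive cells 61 of 78 were below 0 with a median of -0.15, and 13 had an unadjusted p under 0.05. Over all 16026 genes tested, 7996 and 8043 were below 0, with medians of 0.00 in both. In limma, 1004 and 1979 of all genes tested had an unadjusted p under 0.05. Without LXR-positive vehicle replicate 2, the deepest of that group, the LXR-positive median of the 78 genes was -0.04. Among coding genes with transcripts under 1000 bases, the LXR-positive median was -0.25 for 43 subunit genes and -0.09 for 630 others. In DKO cells these medians were -0.08 and -0.04. From 1000 to 2000 bases, the medians of 26 subunit genes and 2404 others were -0.10 and -0.04 in LXR-positive cells. They were -0.095 and -0.013 in DKO cells. The smallest p in LXR-positive cells was that of Atp5s (-1.97 ± 0.66, limma adjusted p = 0.275). It had 25.5, 2.97 and 2.92 normalized counts with AcLDL and 38.1, 21.8 and 26.9 with vehicle, so its groups overlapped at low counts. Atp5j, for the peripheral stalk, came next with 180.2, 184 and 188 normalized counts with AcLDL and 256, 539 and 238 with vehicle. All AcLDL libraries were lower, but the vehicle values were spread widely by replicate 2, at -0.80 ± 0.27 (limma adjusted p = 0.279). Cox5b was the third, at -0.40 ± 0.14 (limma adjusted p = 0.287). In DKO cells the smallest were Ndufv1 (0.29 ± 0.12), Atp5h (-0.42 ± 0.18) and Atp5l (-0.57 ± 0.25), with limma adjusted p between 0.759 and 0.768. Over the 11 core subunits, the log2 fold changes ran between -0.20 ± 0.16 for Atp5b and 0.29 ± 0.12 for Ndufv1 in DKO cells, and between -0.43 ± 0.16 for Atp5b and 0.22 ± 0.08 for Ndufs1 in LXR-positive cells. The difference between the genotypes was called for 0 of 78 genes, where 0.025% of all genes tested were. Of the 78, 4 had an unadjusted p under 0.05 in limma, and edgeR and DESeq2 called 0. Of all 16026 genes tested, 543 had an unadjusted p under 0.05 in limma, and edgeR and DESeq2 called 4 and 12. In GW3965, AcLDL and the vehicle comparison, limma also called 0 genes in each of the 6 other mitochondrial lists.

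The last comparison sets DKO against LXR-positive vehicle cells. Limma called 0 of 78 genes, where 0.316% of all genes tested were called, and 7 had an unadjusted p under 0.05. The median log2 difference of the 78 genes was -0.04, with 44 below 0. Of all 16116 genes tested, 1965 had an unadjusted p under 0.05 in limma and 7843 were below 0. Uqcrc2, a core protein of complex III, had 410.2, 429 and 399 normalized counts in DKO vehicle cells, against 613, 516 and 747 in LXR-positive vehicle cells. Atp5a1 had 3569, 3275 and 3411 in DKO vehicle cells and 4176, 4385 and 4039.6 in LXR-positive vehicle cells. Cox7a2l had 1092, 1142 and 1079 in DKO vehicle cells and 1387, 1548 and 1329 in LXR-positive vehicle cells. All 3 were lower in every DKO library, by log2 differences of -0.58 ± 0.14, -0.30 ± 0.08 and -0.36 ± 0.10 (limma adjusted p = 0.156, 0.191 and 0.198). DESeq2 called these 3 genes lower (adjusted p = 0.0147, 0.0109 and 0.0346), and edgeR called 0. Over all 16116 genes tested, DESeq2 called 304, of which 178 were lower, whereas limma called 51 and edgeR 46. The DKO vehicle libraries held 20659071 to 27189081 reads and the LXR-positive ones 10540385 to 17348717. Every DKO vehicle library lay below every LXR-positive one for 12 of 78 genes, where 10.1% of all genes tested did, and above for 2, where 7.58% did.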

How the data were processed

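Per the submitters' processing notes, the authors used kallisto and DESeq2 with build GRCm38; the sources used here give no versions, annotation or strand setting. Each deposited signal value is a normalized count. Dividing each library by its smallest nonzero value, taken as 1 read, gave whole numbers for all values within 0.01. The read totals given here rest on that value being 1 read. The authors' deposited tables also hold log2 fold changes and p-values, here those of the difference between genotypes in each response, and a Wald score for it, deposited by the authors and not used. The subunit genes, roles and lists were chosen with earlier results of these data known. Values were tested as log2(value + 1) with limma 3.58.1 (R 4.3.3) in the 12 libraries of a table, keeping genes with 10 or more in at least 3 libraries, with Benjamini-Hochberg adjustment and calls at 0.05. The vehicle comparison used the table with GW3965. Named genes were, per comparison, up to 10 called members per direction with the largest change, the 3 with the smallest p where fewer than 5 were called, core subunits in the treatment comparisons (1 is not reported here), isoforms and c-ring genes by level, the most abundant member of each complex, and called members of the lists; of the lists only examples are named. Sdhc, Cox5b, Cox7b, Cox6a1, Ndufs3, Ndufs4 and mt-Cytb, where outside this rule, were chosen after their values were seen. The 3 replicates of a genotype are 3 mice, each giving 4 libraries, so same-numbered libraries of a genotype are paired by mouse. Over 15460 genes their deviations correlated with a median r of 0.163 (-0.0322 to 0.382 over 36 pairs), against -0.074 for different mice. Numbers do not pair mice across genotypes. edgeR 4.0.16 and DESeq2 1.42.0 were run on the recovered reads as alternatives, and the tests were checked on simulated data. The number of reads limits precision for weakly expressed genes. Promoters came from RefSeq, build GRCm38.p6.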

Additional observations from a re-analysis of the deposited data

How the results depend on the processing

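The number of subunit genes called higher with KLA was 35 (no filter) to 47 in DKO cells and 32 (only the libraries compared) to 44 (all 24 libraries) in LXR-positive cells over the alternatives that kept all replicates, against 41 in each. Leaving out 1 library at a time gave 28 to 39 in DKO cells and 28 to 46 in LXR-positive cells. Counts over all genes tested moved as well. Called higher in DKO cells were 1914 to 2505 genes under these alternatives and 1594 to 1946 with a library left out, against 2237. In LXR-positive cells they were 1927 to 2827 and 2108 to 2500, against 2584. Each fit tested 15957 genes, except 15955 with the patch copies summed and 31989 with no filter. Of the 41, 26 in each genotype kept their call under every alternative and every left-out library, and 19 did so in both. Called lower with KLA were 0 genes in DKO cells in every setting, and in LXR-positive cells 1 with the mouse as a replicate block (Atp5g2) and 0 to 1 with a library left out. The block also ended the DKO call of Atp5g1 (limma adjusted p = 0.0562) and changed no other call of a named gene. In the vehicle comparison DESeq2 called 3 genes lower, where it called 178 of all 16116 genes tested lower, and the other settings called 0. The replicate block of that comparison was by replicate number. Numbers do not pair mice across genotypes, so that setting is no check on it. The remaining comparisons had 0 calls in every setting. An added alternative, chosen after seeing the data, summed the patch copies and changed no call. Uncalled values changed sign in some settings, not counting changes within 1 SE. DKO Ndufs1 under GW3965 was 0.0835 with thinned reads. With a library left out, the lowest and highest values were -0.1623 and 0.4239 for LXR-positive Sdha with KLA, -0.2353 and 0.17 for LXR-positive Sdha with GW3965, -0.0827 and 0.2789 for DKO Cox5a and -0.1269 and 0.10 for DKO Cox4i1 with GW3965, and -0.1381 and 0.0895 for DKO Cox4i1 with AcLDL. The cause was not tested. With 3 mice per genotype, small differences could not be resolved.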
